A study of Mus musculus with 12 samples.

Results

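The genes described here are 9 colony-stimulating factor genes and receptors, taken by symbol from the 40847 genes of a raw count table: Csf2ra, Csf2rb, Csf2rb2, Csf1r, Csf3r, Csf1, Csf2, Csf3 and Flt1. All 9 had an entry in the table, and 8 of them passed the filter on low counts that left 14749 genes for testing; Csf2 had no count in any library. The cells were mouse fetal liver alveolar-like macrophages (FLAMs), macrophages cultured from fetal liver that the labels list as a cell line. Each of the 4 groups held 3 libraries of poly(A)-selected RNA, and each culture contained recombinant mouse GM-CSF at 30 ng/ml. Untreated cells received nothing further, the TGFβ group was cultured with recombinant human TGFβ1 at 20 ng/ml, the Pam3 group received the TLR2 ligand Pam3CSK4 at 25 ng/ml for 18 h, and the Pam3+TGFβ group received both agents. The series asked how TGFβ changes the answer of these cells to TLR2 activation. Because GM-CSF was present in each group, no library shows its effect, and the labels do not say whether the 3 libraries of a group came from separate cultures, so p-values measure the spread between these libraries, which may be technical.

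Library totals ran from 34036650 to 44374115 counts. The 7 macrophage markers other than Csf1r and the 8 alveolar macrophage markers examined each had counts in all 4 groups, 2 of them near the floor in some. Krt79 had 3 to 8 counts a library untreated and 1 to 11 with Pam3. Fabp4 had 3 to 6 counts a library with TGFβ and 4 to 9 with both agents. Macrophage markers summed to between 30807 and 34884 CPM (the count rate of edgeR on TMM-scaled library sizes) in untreated libraries, 15811 to 16693 with TGFβ, 33447 to 34469 with Pam3 and 24293 to 25012 with both. Nearly all of this sum was the lysozyme gene Lyz2, and the other markers did not all follow it. Itgam fell with TGFβ too, from 1088 CPM untreated to 38.8, while Fcgr1 did not, at 81.1 and 91.3 CPM. Markers of T, B and NK cells, fibroblasts, erythroid cells and mast cells summed to at most 1.48 CPM in any library. The 6 dendritic cell markers, mostly Zbtb46, summed to 4.72 to 5.87 CPM untreated and 1.85 to 2.62 with TGFβ. Their sum was 4.22 to 5.44 CPM with Pam3 and 2.44 to 2.85 with both. This sum was lower with TGFβ, as were Csf1 and Csf3r below. Itgae of this list was higher with TGFβ, at 0.194 CPM untreated, 0.608 with TGFβ, 0.255 with Pam3 and 0.617 with both. Xcr1 stood at 0.398, 0.207, 0.439 and 0.519 CPM in that order. The part of dendritic cells in the levels of Csf1 and Csf3r was not tested. The 4 megakaryocyte markers summed to 2.68 to 4.48, 2.99 to 4.79, 4.89 to 6.40 and 2.51 to 2.97 CPM in that order, and hepatocyte markers reached 10.2 CPM. The hepatocyte sum was nearly all Afp, at 5.77 CPM untreated, 5.90 with TGFβ, 7.02 with Pam3 and 9.27 with both, while Ttr was at 0 in each library and Alb had at most 5 counts. These are bulk libraries, so fewer cells making a transcript and less transcript per cell cannot be told apart.

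Colony-stimulating factors are the cytokines that keep myeloid cells alive and direct their differentiation. The GM-CSF receptor pairs a ligand-specific α chain, encoded by Csf2ra, with the common β chain encoded by Csf2rb, which signals through JAK2 and STAT5 and also serves the receptors for IL-3 and IL-5. Mice carry a further β chain gene, Csf2rb2, whose product pairs with the IL-3 receptor α chain. Csf1r encodes the receptor tyrosine kinase for CSF1 and IL-34, Csf3r encodes the G-CSF receptor of the granulocyte lineage, and Csf1, Csf2 and Csf3 encode M-CSF, GM-CSF and G-CSF. Flt1 encodes VEGF receptor 1, a receptor tyrosine kinase that binds VEGF-A, VEGF-B and PlGF and is carried by monocytes and macrophages as well as endothelium. In the lung, GM-CSF and TGFβ are both needed for alveolar macrophages to form.

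The β chain genes are neighbours on chromosome 15 of GRCm39, with Csf2rb at chr15:78209952-78238047 on the plus strand and Csf2rb2 at chr15:78166707-78189921 on the minus strand. They are also near copies of each other, which matters for the separate counts of these genes below. In the GENCODE M39 transcripts, the coding sequences of 2688 bases (Csf2rb) and 2634 bases (Csf2rb2) shared 2503 of 2628 aligned bases, an identity of 95.2%. The 60-base coding window in which they differ most is shown first, with the 13 differing bases in capitals, because reads over it can be assigned to 1 gene. It spans coding bases 304 to 363 of Csf2rb and 307 to 366 of Csf2rb2. The longest identical run, 242 bases at coding bases 2083 to 2324 of both genes, follows in lower case, because reads inside it cannot be assigned.
Csf2rb, most different window: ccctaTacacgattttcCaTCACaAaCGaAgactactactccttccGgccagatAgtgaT
Csf2rb2, most different window: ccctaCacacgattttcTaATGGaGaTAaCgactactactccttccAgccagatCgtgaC
Csf2rb and Csf2rb2, identical run: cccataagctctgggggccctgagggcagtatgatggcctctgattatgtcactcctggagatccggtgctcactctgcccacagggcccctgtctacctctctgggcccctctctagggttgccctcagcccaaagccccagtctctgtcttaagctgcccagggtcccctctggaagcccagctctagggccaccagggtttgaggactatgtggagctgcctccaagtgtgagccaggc
Of all stretches of 100 bases in the Csf2rb transcript, 334 of 4801 (6.96%) also occurred in the Csf2rb2 transcript, and 165 of 4751 stretches of 150 bases (3.47%) did so. In the Csf2rb2 transcript, 334 of 4641 (7.2%) and 165 of 4591 (3.59%) also occurred in that of Csf2rb. How the authors' counting treated reads that match both genes is not given in the sources used here. The separate counts of the pair are therefore uncertain, and their sum was tested as well. Csf2rb had the higher counts, so its reads, if counted for Csf2rb2, could be a larger part of the Csf2rb2 count than these shares.

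Both β chain genes rose with Pam3, and more so in cells cultured with TGFβ. Csf2rb stood at 2207, 2302 and 2363 CPM in the untreated libraries, 1829, 1899 and 1915 with TGFβ, 3163, 3140 and 3231 with Pam3, and 3383, 3223 and 3443 with both. The libraries with Pam3 lay above those without it, and the TGFβ libraries lay below the untreated ones, with no overlap in either case. Between Pam3 and Pam3+TGFβ the libraries overlapped. In the quasi-likelihood test of edgeR with Benjamini-Hochberg adjustment over all tested genes, which gives each adjusted p below, Csf2rb rose with Pam3 by a log2 fold change of 0.47 without TGFβ (SE 0.0514, adjusted p 1.53e-07). The rise was 0.83 with TGFβ (SE 0.0517, adjusted p 8.37e-13). The difference between these responses, the interaction, was 0.36 (SE 0.0726, adjusted p 0.000775). TGFβ without Pam3 lowered Csf2rb, by a change of -0.28 (SE 0.0514, adjusted p 4.67e-05), and with Pam3 the TGFβ effect was 0.08 (SE 0.0513, adjusted p 0.245).

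Csf2rb2 followed a similar course, with larger log2 fold changes for Pam3 and a smaller one for TGFβ without Pam3. Its libraries held 743, 814 and 797 CPM untreated, 669, 693 and 686 with TGFβ, 1155, 1138 and 1166 with Pam3, and 1389, 1322 and 1437 with both. No group overlapped with a group it was compared with, and the highest values were those of Pam3+TGFβ. The log2 fold change with Pam3 was 0.55 without TGFβ (SE 0.0518, adjusted p 1.14e-08) and 1.02 with it (SE 0.0521, adjusted p 1.79e-14), an interaction of 0.46 (SE 0.0730, adjusted p 3.93e-05). Unlike Csf2rb, it was called in both directions of the TGFβ comparison, at -0.20 without Pam3 (SE 0.0516, adjusted p 0.00198) and 0.26 with Pam3 (SE 0.0516, adjusted p 0.000151). With the pair summed, the Pam3 responses were 0.49 and 0.88 (adjusted p 6.97e-08 and 2.33e-13) and the interaction 0.39 (adjusted p 0.000294). The summed pair also passed the test for TGFβ with Pam3, at 0.13 (adjusted p 0.0436), which Csf2rb by itself did not.

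The α chain gene Csf2ra (chr19:61212395-61216892, minus strand) did not follow the β chains. Its libraries held 501, 520 and 463 CPM untreated, 424, 424 and 428 with TGFβ, 445, 464 and 475 with Pam3, and 410, 449 and 441 with both. The groups with and without Pam3 overlapped at either TGFβ condition. Csf2ra was lower with TGFβ in the absence of Pam3, at -0.22 on the log2 scale (SE 0.0506, adjusted p 0.000796), and the TGFβ effect with Pam3 was -0.09 (SE 0.0506, adjusted p 0.159). Its Pam3 responses were -0.10 without TGFβ (SE 0.0506, adjusted p 0.191) and 0.03 with it (SE 0.0506, adjusted p 0.721), and the interaction was 0.13 (SE 0.0716, adjusted p 0.271).

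**Figure D1:**
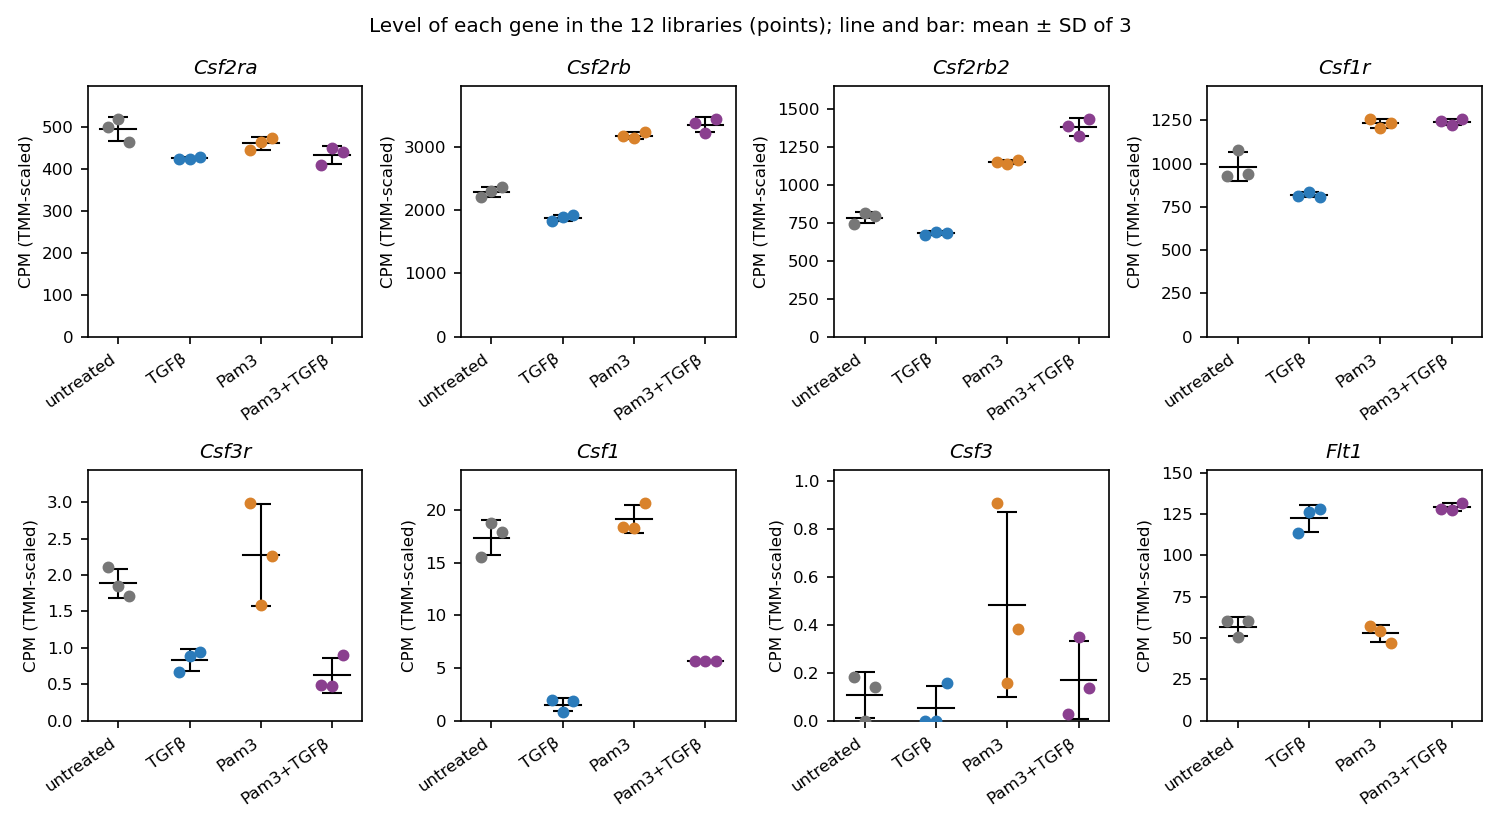
Level of 8 of the genes in each of the 12 libraries, in CPM on TMM-scaled library sizes (vertical axes start at 0 and differ between panels), by group on the horizontal axis; points are libraries, the long line is the mean and the bar 1 SD of 3 libraries. Csf2rb, Csf2rb2 and Csf1r are higher in the libraries with Pam3, Csf1 and Csf3r are lower and Flt1 is higher in those with TGFβ, and Csf3 lies below 1 CPM in each library.

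The balance between subunits followed from these courses. Csf2rb2 made up 25.5 ± 0.534% of the counts of the β pair in untreated libraries (mean ± SD, n = 3), 26.6 ± 0.225% with TGFβ, 26.6 ± 0.116% with Pam3 and 29.2 ± 0.201% with both. The 4 pairs of groups compared did not overlap, and each gave p = 0.1 in an exact two-sided permutation test (0.1 after adjustment over the 4), the smallest that this test allows with 3 against 3 libraries, so it cannot pass a threshold of 0.05. Per exon length (RPKM), the level of the β pair divided by that of Csf2ra was 2.85 ± 0.230 in untreated libraries, 2.77 ± 0.0533 with TGFβ, 4.31 ± 0.124 with Pam3 and 5.08 ± 0.356 in Pam3+TGFβ (SD, n = 3). With Csf2rb as the sole β chain the ratios were 1.87, 1.78, 2.77 and 3.11 in the same order. The ratio in Pam3+TGFβ ran from 4.70 to 5.40 and that in TGFβ from 2.71 to 2.81, so these groups stood apart, while untreated (2.69 to 3.11) and TGFβ overlapped. The size of these ratios depends on the length used. The union of exons is 7277 bases for Csf2rb, whose longest transcript has 4900, and 2924 for Csf2ra, whose longest has 2387.

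**Figure D2:**
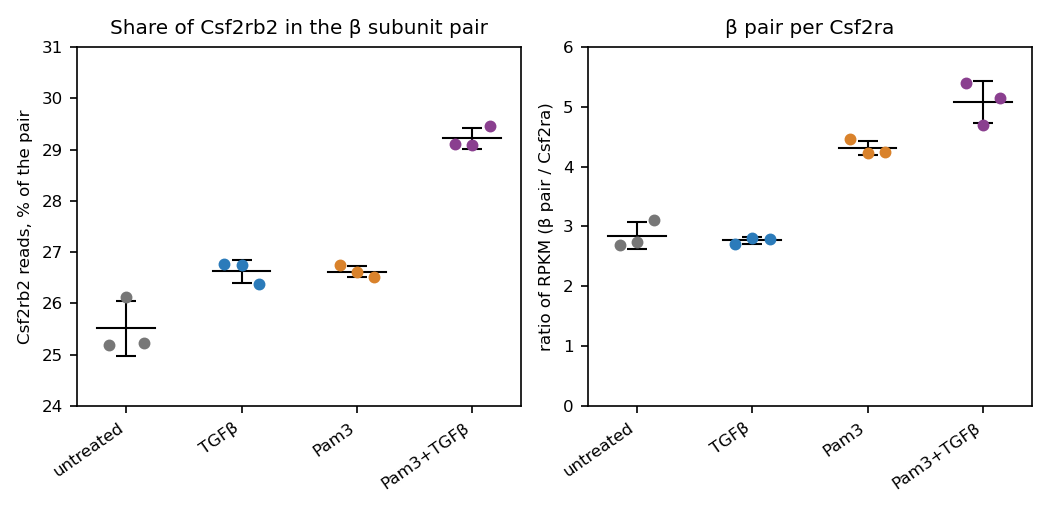
Left, Csf2rb2 counts as a percent of the counts of Csf2rb plus Csf2rb2 (the axis starts at 24%); right, the RPKM of both β chain genes divided by the RPKM of Csf2ra. Points are libraries, the long line is the mean and the bar 1 SD of 3. The share is highest in Pam3+TGFβ (29.2%), and the ratio is higher in the groups with Pam3 (4.31 and 5.08) than in those without (2.85 and 2.77).

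Over the 8 tested genes, 3 were called with Pam3 in the absence of TGFβ, beside 18.3% of all tested genes, and these 3 (Csf2rb, Csf2rb2 and Csf1r) were higher, a direction called for 9.62% of all tested genes, against 8.66% lower. With TGFβ present, Pam3 raised the same 3 and Csf1, so 4 of 8 were called, beside 38.5% of all tested genes (20.4% higher). TGFβ without Pam3 changed 7 of 8, beside 51% of all tested genes. Of these, 6 were lower, against a share of 28.1% lower over all genes, and Flt1 was higher, against 22.9%. TGFβ with Pam3 changed 4 of 8, beside 45.3%, with Csf2rb2 and Flt1 higher (21.5% of all genes) and Csf1 and Csf3r lower (23.8%). The interaction was called for 4 of 8, each positive, beside 15.9% of all tested genes (10.3% positive). Upper-quartile scaling turned the split over all genes for the Pam3 response without TGFβ from 1419 higher and 1278 lower to 1299 and 1495. It moved that for the Pam3 response with TGFβ from 3008 higher and 2670 lower to 2477 and 3489, and for the interaction from 1516 and 836 to 1255 and 1097. These comparisons share groups of libraries, so their calls are not independent of each other.

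**Figure D3:**
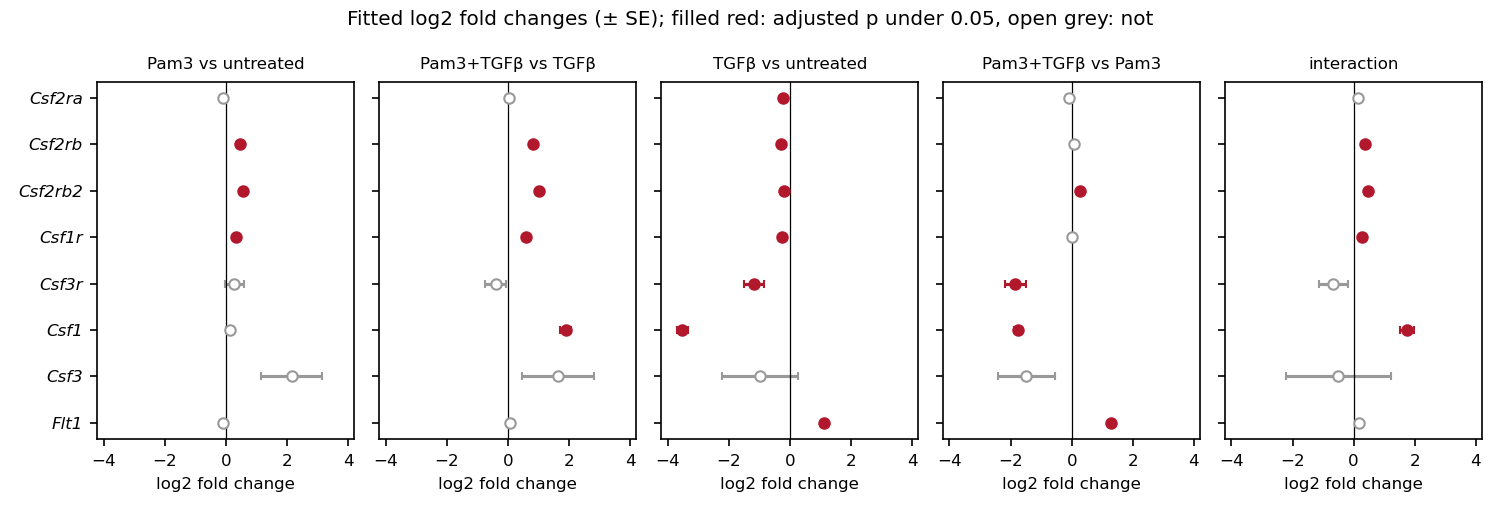
Log2 fold change of the 8 tested genes in each of the 5 comparisons, with bars of 1 SE; filled red points had an adjusted p under 0.05 and open grey points did not. The β chain genes and Csf1r lie right of 0 in both Pam3 responses, Csf1 lies at -3.51 for TGFβ without Pam3, and Flt1 lies above 1 in both TGFβ comparisons.

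Csf1r, the receptor for M-CSF, rose with Pam3 in both conditions. Its untreated libraries held 931, 1077 and 942 CPM, against 813, 838 and 809 with TGFβ, 1260 (1259.7), 1208 and 1237 with Pam3, and 1245, 1223 and 1256 with both. Untreated replicate 2 was the highest of its group and still lay below each Pam3 library. The log2 fold change with Pam3 was 0.33 without TGFβ (SE 0.0551, adjusted p 8.14e-05) and 0.60 with it (SE 0.0553, adjusted p 2.01e-09). TGFβ lowered Csf1r in the absence of Pam3, at -0.26 (SE 0.0551, adjusted p 0.000287), and with Pam3 the groups overlapped, at 0.01 (SE 0.0551, adjusted p 0.928). The interaction of 0.27 (SE 0.0779, adjusted p 0.0176) was the least stable of the called values. It was not called with upper-quartile scaling (0.22, adjusted p 0.0523), without TGFβ replicate 1 (0.24, adjusted p 0.0590) or 3 (0.24, adjusted p 0.0632), or without Pam3+TGFβ replicate 1 (0.24, adjusted p 0.0564) or 3 (0.24, adjusted p 0.0601).

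The ligand gene Csf1 (chr3:107648364-107667806, minus strand) showed the widest range between groups among the genes with more than a few counts. It stood at 15.5, 18.7 and 17.9 CPM in untreated libraries and at 1.94, 0.840 and 1.83 CPM with TGFβ, where it had 34 to 70 counts a library. With Pam3 it stood at 18.4, 18.3 and 20.7 CPM, and with both agents at 5.67, 5.62 and 5.69 CPM. Pam3+TGFβ libraries thus lay above those with TGFβ and below those with Pam3, without overlap. TGFβ lowered Csf1 by a log2 fold change of -3.51 without Pam3 (SE 0.169, adjusted p 3.92e-14) and -1.75 with Pam3 (SE 0.142, adjusted p 5.31e-10), which are 11.4-fold and 3.37-fold lower levels. Pam3 raised it in the presence of TGFβ, at 1.89 (SE 0.181, adjusted p 1.23e-08), while without TGFβ the groups overlapped at 0.14 (SE 0.131, adjusted p 0.553). The interaction was 1.76 (SE 0.225, adjusted p 4.19e-06). The receptor and its ligand were therefore both lower with TGFβ in the absence of Pam3, at -0.26 for Csf1r and -3.51 for Csf1. With Pam3 the TGFβ effect was called for Csf1 and not for Csf1r.

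Among the genes near Csf1r in function, 15 of 16 listed partners and CSF1R-linked macrophage genes were tested. With TGFβ in the absence of Pam3, 2 were higher and 10 lower, beside 22.9% and 28.1% of all tested genes, with a median log2 fold change of -0.96 beside -0.01. The complement genes were among those lower: C1qb stood at 8.38 CPM untreated and 0.0699 CPM with TGFβ, and C1qc at 3.08 and 0.00823 CPM. With TGFβ these were 0 to 8 counts a library for C1qb and 0 to 1 for C1qc, so the size of the falls is uncertain. Runx1, a transcription factor that acts on the Csf1r gene, went the other way, rising with TGFβ by 0.93 (SE 0.0551, adjusted p 8.08e-13). With Pam3, 7 of the 15 were higher and 1 lower without TGFβ (median 0.31), beside 9.62% and 8.66% of all tested genes. With TGFβ, 8 were higher and 1 lower, beside 20.4% and 18.1% (median 0.64, or 0.38 when 3 genes of 3 counts or fewer in each library of a group are given a fold computed against 3 counts). The interaction was positive for 6 and negative for 1, beside 10.3% and 5.67%, and the positive and negative calls together numbered 4 instead of 7 without TGFβ replicate 1 or without Pam3+TGFβ replicate 3.

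The promoters of the genes were searched for 6 short motifs on both strands in the 250 bases before the start given by RefSeq on GRCm38.p6, a build older than that of the counts. A promoter sequence was matched for 6 of the 9 genes, Csf2ra, Csf2rb2, Csf3r, Csf1, Csf2 and Flt1. The motifs were STAT (TTCNNNGAA), NF-kB (GGGNNTTTC), SMAD (CAGACA), AP-1 (TGAGTCA), PU.1 (GAGGAAGT) and CK-1 (GAGATTCCA). Matches were found in Csf1 and Csf2rb2, which are printed with the matching letters in capitals because both genes changed with TGFβ and, where TGFβ was present, with Pam3. Csf1 (chr3:107760470-107760719, minus strand) holds the NF-kB letters 153 to 145 bases before the start, on the opposite strand. Csf2rb2 (chr15:78305722-78305971, minus strand) holds the SMAD letters on the opposite strand 174 to 169 bases before the start, and the STAT letters 15 to 7 bases before it.
Csf1 promoter: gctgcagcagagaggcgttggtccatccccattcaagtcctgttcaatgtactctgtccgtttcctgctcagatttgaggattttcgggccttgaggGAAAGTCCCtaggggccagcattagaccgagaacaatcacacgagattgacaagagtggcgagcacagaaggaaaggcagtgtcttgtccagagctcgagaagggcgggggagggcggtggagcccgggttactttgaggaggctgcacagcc
Csf2rb2 promoter: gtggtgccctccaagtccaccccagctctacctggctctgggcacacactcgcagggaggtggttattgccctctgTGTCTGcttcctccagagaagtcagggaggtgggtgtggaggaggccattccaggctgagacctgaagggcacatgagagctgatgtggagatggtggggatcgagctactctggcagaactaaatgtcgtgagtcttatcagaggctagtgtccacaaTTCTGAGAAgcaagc
Of 32851 promoters of this length, 3.72% hold the NF-kB letters, 17.1% the SMAD letters and 7.02% the STAT letters, so matches are common, and the SMAD letters most of all. The AP-1, PU.1 and CK-1 letters, in 4.46%, 2.44% and 0.204% of promoters, were not in these 6 windows. A match is a run of letters and no evidence of binding, and its absence says nothing about a factor.

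Csf3r (chr4:125918262-125938236, plus strand), the G-CSF receptor gene, was present at low levels and was lower with TGFβ. It stood at 2.10, 1.85 and 1.71 CPM untreated, 0.664, 0.889 and 0.943 with TGFβ, 2.99, 1.59 and 2.26 with Pam3, and 0.495, 0.482 and 0.904 with both. These are 17 to 115 counts a library, and each library without TGFβ lay above each library with it. The log2 fold change with TGFβ was -1.18 without Pam3 (SE 0.326, adjusted p 0.00382) and -1.84 with it (SE 0.334, adjusted p 5.63e-05). Its Pam3 responses were 0.27 without TGFβ (SE 0.309, adjusted p 0.628) and -0.39 with it (SE 0.347, adjusted p 0.410), and neither passed the test. The 9 other neutrophil and granulocyte precursor markers summed to 13.9 to 16.1 CPM untreated, 4.58 to 6.17 with TGFβ, 16.8 to 17.4 with Pam3 and 5.99 to 8.09 with both, so this sum moved with Csf3r. Most of it was S100a8, at 13.8, 3.07, 15.4 and 3.98 CPM in that order, a gene that macrophages can also express. Some other markers of the list had higher means with TGFβ in the absence of Pam3, S100a9 at 0.253 and 0.993 CPM and Camp at 0.00802 and 0.174. The means of Ngp were 0.346 and 0.623 CPM and those of Ltf 0.361 and 0.587. Counts of these latter genes overlapped, at 10 to 16 and 14 to 38 for Ngp and 11 to 17 and 6 to 32 for Ltf. No test of these differences is given. Mpo was at 0 in each library, and Elane and Ly6g had at most 4 counts. The part of such cells in the level of Csf3r was not tested.

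The other ligand genes were at or near the limit of detection. Csf3 (chr11:98592089-98594458, plus strand) had 7, 0 and 5 counts in the untreated libraries, 0, 0 and 6 with TGFβ, 35, 6 and 12 with Pam3, and 1, 13 and 6 with both. Pam3 replicate 1 held the most, and the groups overlapped in each comparison. None of its 4 pairwise log2 fold changes or its interaction passed the test of edgeR in the fit of all libraries; the largest, for Pam3 without TGFβ, was 2.15 (SE 0.997, unadjusted p 0.0423, adjusted p 0.153). Without TGFβ replicate 3, the TGFβ libraries hold no count and the Pam3 response with TGFβ was called (adjusted p 0.0412). Csf2 (chr11:54138097-54140493, minus strand) had 0 counts in all 12 libraries, which allows at most 0.0678 to 0.0953 CPM a library (3 counts, covering counting error only). GM-CSF transcript was thus not detectable at this depth in cultures that were supplied with the protein.

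Flt1 (chr5:147498414-147662826, minus strand) was the 1 gene of the 8 that was higher with TGFβ in both conditions. Its libraries held 60.1, 50.4 and 60.5 CPM untreated, 113, 126 and 128 with TGFβ, 57.3, 54.3 and 47.1 with Pam3, and 128, 127 and 132 with both. The libraries fell into levels by TGFβ, with no overlap, and those with and without Pam3 overlapped within each level. The log2 fold change with TGFβ was 1.11 without Pam3 (SE 0.0735, adjusted p 1.08e-11) and 1.29 with it (SE 0.0739, adjusted p 9.53e-13). Its Pam3 responses were -0.11 without TGFβ (SE 0.0740, adjusted p 0.381) and 0.08 with it (SE 0.0718, adjusted p 0.450). The interaction was 0.18 (SE 0.103, adjusted p 0.282), and 0.27 without untreated replicate 2, where it was called (adjusted p 0.0350).

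Among other genes of the VEGF system, Flt4 was higher with TGFβ in both conditions and most others were lower. Of 9 listed, 6 were tested: with TGFβ in the absence of Pam3, 1 was higher and 5 lower (median -0.76, beside -0.01 and 22.9% higher and 28.1% lower over all tested genes). In the presence of Pam3, 2 were higher and 3 lower (median -0.69, beside -0.0017 and 21.5% and 23.8%). Flt4, the VEGF-C receptor, rose from 0.380 to 1.40 CPM without Pam3 (1.85, SE 0.409, adjusted p 0.000491) and from 0.510 to 3.21 CPM with it (2.66, SE 0.395, adjusted p 3.71e-06). The co-receptor Nrp1 was lower, from 153 to 81.4 CPM (-0.91, SE 0.0527, adjusted p 1.44e-13) and from 136 to 68.7 CPM (-0.98, SE 0.0530, adjusted p 3.93e-14). The Flt1 ligand genes Pgf and Vegfb were lower as well. Pgf stood at 3.02 CPM untreated, 1.30 with TGFβ, 2.84 with Pam3 and 1.09 with both, and Vegfb at 16.4, 10.7, 11.7 and 7.98 CPM. Nrp2 had a called interaction of 0.97 (SE 0.0830, adjusted p 2.65e-09), with 554, 389.6, 752 and 1032 CPM in the same order. Under DESeq2, limma-trend, no filter, or without TGFβ replicate 1 or Pam3 replicate 3, 2 genes of this list had a called interaction instead of 1. The 7 endothelial markers summed to 287 to 303 CPM untreated, 181 to 197 with TGFβ, 218 to 223 with Pam3 and 121 to 137 with both, the opposite direction to Flt1. Nearly all of that was Vwf. Pecam1 ran as Flt1 did, from 0.895 CPM untreated to 2.46 with TGFβ and from 1.03 with Pam3 to 2.77 with both. Cdh5 ran against Flt1, from 0.888 CPM untreated to 0.0514 with TGFβ and from 0.740 with Pam3 to 0.124 with both. Kdr fell with TGFβ from 0.865 to 0.0820 CPM without Pam3 (adjusted p 0.000469). With Pam3 its groups overlapped, at 0.944 and 0.526 CPM, and the change did not pass the test (adjusted p 0.286). Emcn was at 0 in each library, and Tek and Tie1 had at most 3 counts. The part of such cells in the level of Flt1 was not tested.

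**Figure D4:**
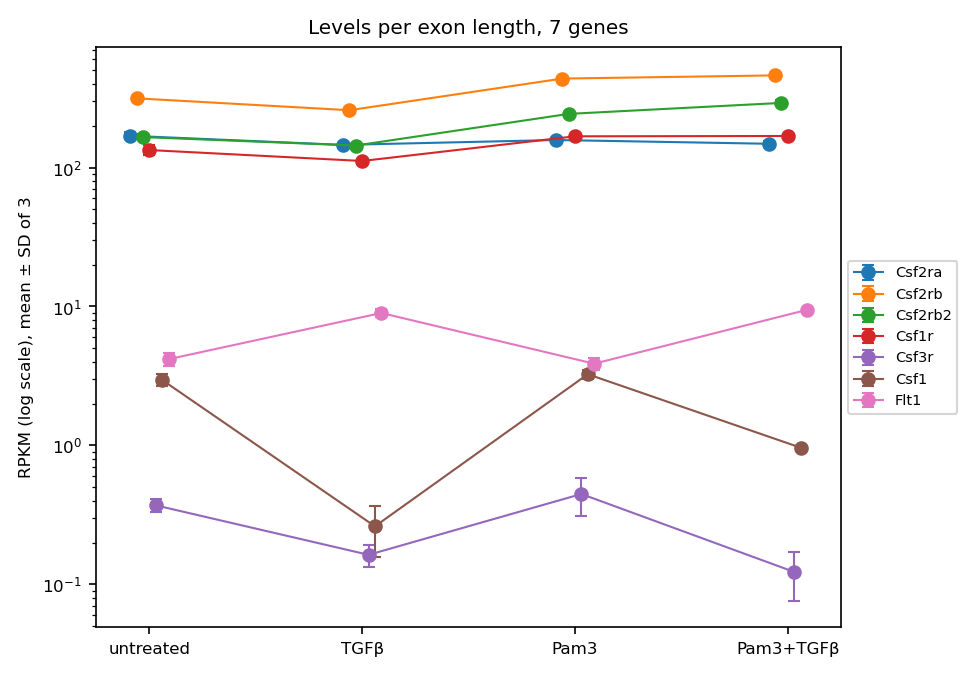
Mean level per exon length (RPKM, log scale, bars 1 SD of 3 libraries) of 7 genes in the 4 groups; points are shifted sideways for clarity and lines join the points of a gene to guide the eye. Csf2 (no count) and Csf3 (0 in some libraries) are not drawn. The 4 genes Csf2rb, Csf2rb2, Csf2ra and Csf1r lie above 100 RPKM in each group and the other 3 below 10.

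Levels between genes were compared per exon length. In untreated cells Csf2rb was highest at 315 ± 10.8 RPKM, followed by Csf2ra at 169 ± 9.86 and Csf2rb2 at 166 ± 7.82, whose libraries overlapped, and by Csf1r at 134 ± 11.1 (SD, n = 3). Far below came Flt1 at 4.17 ± 0.417, Csf1 at 2.96 ± 0.287 and Csf3r at 0.370 ± 0.0390 RPKM, and then Csf3 and Csf2, which overlapped at 0. With TGFβ the order of the means was the same, with Csf2ra (145.5) and Csf2rb2 (144) overlapping again and Csf1 (0.261) overlapping Csf3r (0.163 RPKM). In both groups with Pam3, Csf2rb2 and Csf1r stood above Csf2ra without overlap, at 243, 168 and 158 RPKM with Pam3 and 292, 169 and 148 RPKM with both agents. Flt1 and Csf1 overlapped with Pam3 (3.87 and 3.25 RPKM), as did Csf3r and Csf3 in both groups with Pam3. The order of the means was the same with the other scalings and with the longest transcript as the length. Leaving out 1 library exchanged Csf2ra and Csf2rb2 in untreated cells (without replicate 1) and Csf3r and Csf3 in Pam3+TGFβ (without replicate 1 or 3), and without TGFβ replicate 3 it left Csf3 tied with Csf2 at 0. These lengths come from an annotation and the library kit selects poly(A) RNA, so the values order genes only roughly.

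The listed genes of GM-CSF receptor signalling and feedback, 27 of 27 tested, were more often lower than higher with TGFβ. Without Pam3, 4 were higher, 19 lower and 4 not called, with a median log2 fold change of -0.23, beside 22.9% higher, 28.1% lower and a median of -0.01 over all tested genes. With Pam3, 5 were higher and 15 lower (median -0.15), beside 21.5% and 23.8% of all tested genes. The kinase gene Jak2 and the transducers Stat5a and Stat5b were among those lower without Pam3, at -0.26 (SE 0.0604, adjusted p 0.000665), -0.19 (SE 0.0730, adjusted p 0.0306) and -0.27 (SE 0.0541, adjusted p 0.000151). Stat5a lost its call in 10 of 20 alternative settings, with adjusted p up to 0.279 (without untreated replicate 1, at -0.11), while those of Jak2 and Stat5b held in the 20 run for each. Cish, a feedback inhibitor that STAT5 is known to induce, stood at 127 CPM untreated and 62.4 with TGFβ (-1.02, SE 0.0542, adjusted p 2.24e-14), and the kinase gene Pim1 at 191 and 61.2 CPM (-1.65, SE 0.0563, adjusted p 2.95e-18). Socs2, another STAT5-induced inhibitor, went the other way, from 44.8 to 76.4 CPM (0.77, SE 0.0618, adjusted p 8.00e-11). GM-CSF was present in each of these cultures at the same stated dose.

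With Pam3, 8 of the 27 were higher and 2 lower without TGFβ (median 0.04), beside 9.62% and 8.66% of all tested genes, or 6 called in all without untreated replicate 1. With TGFβ, 11 were higher and 3 lower, beside 20.4% and 18.1% (median 0.09 beside -0.02 over all tested genes). The cytokine signalling inhibitor Socs3 stood at 45.0 CPM untreated, 10.5 with TGFβ, 113 with Pam3 and 104 with both, a Pam3 response of 1.33 without TGFβ (SE 0.113, adjusted p 1.37e-06) and 3.30 with it (SE 0.126, adjusted p 5.09e-11). Socs1, whose product blocks JAK kinases, stood at 6.70, 2.18, 17.7 and 19.9 CPM in that order. Jak2 rose with Pam3 by 0.29 (SE 0.0600, adjusted p 0.000838) and by 0.63 with TGFβ (SE 0.0602, adjusted p 3.64e-09), an interaction of 0.34 (SE 0.0849, adjusted p 0.00622). The interaction of Pim1 was 1.09 (SE 0.0775, adjusted p 8.72e-11), that of Stat5b -0.04 (SE 0.0766, adjusted p 0.813). Over the list, 8 interactions were positive and 1 was negative, with a median of 0.10 beside 0.00 over all genes, of which 10.3% had a positive and 5.67% a negative call.

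**Figure D5:**
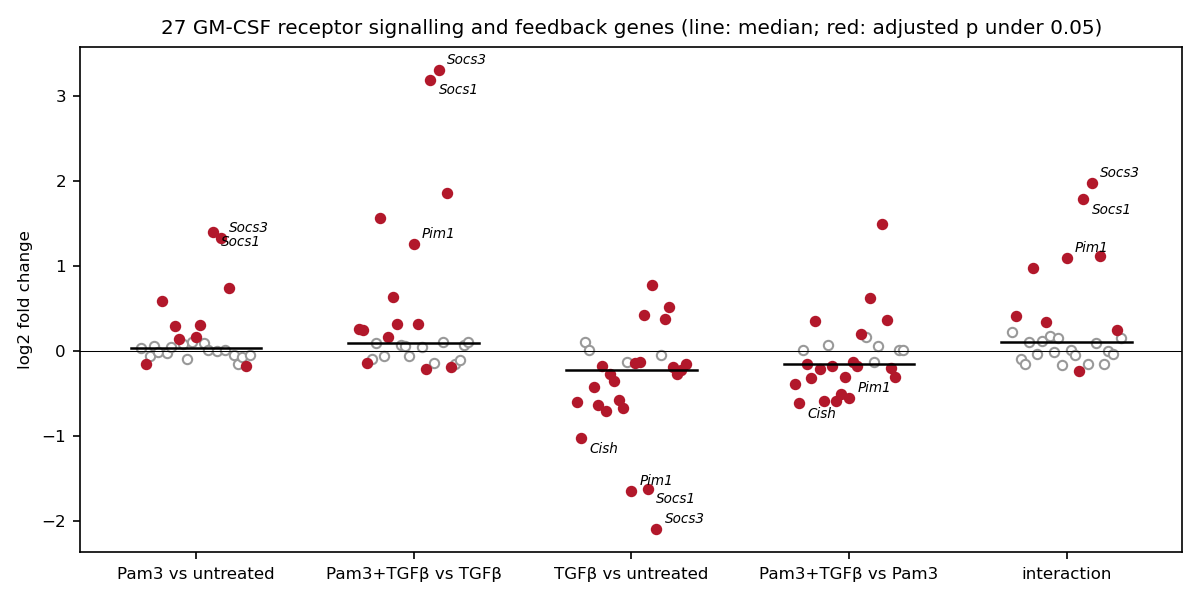
Log2 fold changes of 27 genes of GM-CSF receptor signalling and feedback in the 5 comparisons; red points had an adjusted p under 0.05, open points did not, the horizontal bar is the median of the list and 4 genes are named where they changed by more than 0.5. The median is lowest for TGFβ without Pam3 (-0.23), and Socs1 and Socs3 are highest for Pam3 with TGFβ (3.19 and 3.30).

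Of 18 listed alveolar macrophage genes that depend on GM-CSF, all were tested and calls went both ways. TGFβ without Pam3 raised 8 and lowered 9 (median -0.18), beside 22.9% and 28.1% of all tested genes. Siglecf, a surface lectin of alveolar macrophages, rose from 32.1 to 300.4 CPM (3.22, SE 0.0624, adjusted p 3.74e-23), and Pparg, the nuclear receptor that GM-CSF induces in fetal monocytes, from 117 to 225 CPM (0.94, SE 0.0448, adjusted p 2.34e-15). Of the genes lowered, Fabp4 changed most, from 31.1 to 0.132 CPM (-7.86, SE 0.196, adjusted p 4.93e-21). Marco fell from 2147 to 123 CPM (-4.12, SE 0.0781, adjusted p 7.11e-23). The lipid scavenger receptor Cd36 fell from 456 to 51.2 CPM (-3.15, SE 0.0642, adjusted p 9.56e-20). With Pam3, 4 were higher and 7 lower without TGFβ (median -0.02, beside 9.62% and 8.66% of all tested genes), and 9 higher and 8 lower with it (median 0.20, beside 20.4% and 18.1%).

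Other growth factor receptors that share chains or ligands with these genes were mostly low. Of 15 listed, 7 were tested, and Il3 and Il5ra had no count in any library. TGFβ raised 1 and lowered 3 of the 7 in either Pam3 condition, beside 22.9% and 28.1% of all tested genes without Pam3 and 21.5% and 23.8% with it. The gene raised was the IL-4 receptor gene Il4ra, from 174 to 292 CPM without Pam3 (0.75, SE 0.0458, adjusted p 4.22e-13) and from 214 to 309 CPM with it (0.53, SE 0.0456, adjusted p 4.10e-10). Il3ra, whose product pairs with both β chains, stood at 25.4 CPM untreated, 22.3 with TGFβ, 23.3 with Pam3 and 25.9 with both, and was called in 1 comparison, Pam3 with TGFβ (0.21, SE 0.0817, adjusted p 0.0437), a call lost in 7 of 20 alternative settings. The common γ chain gene Il2rg fell with TGFβ from 209 to 56.2 CPM (-1.89, SE 0.0598, adjusted p 9.73e-19) and rose with Pam3 in its presence to 120.3 CPM (1.10, SE 0.0591, adjusted p 6.95e-14). Kitl, the gene of stem cell factor, fell from 3.26 to 0.265 CPM (-3.59, SE 0.415, adjusted p 7.58e-08).

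The genes whose log2 CPM followed each member most closely over the 12 libraries were found by Pearson's r, as a description. All 12 points share the same treatments and scaling, so a high r can reflect any gene that responds to the same agents. Csf2rb went with Slfn5 and Syk (r = 0.994 for both), and Csf2rb2 with the interferon-induced genes Oas2 and Oasl2 (r = 0.994 for both), which stood at 10.9 and 4.69 CPM untreated and 98.6 and 85.6 CPM with Pam3+TGFβ. Csf1r went with Ptges and Slc39a1 (r = 0.988 for both). Csf1 went with the chemokine gene Ccl2 (r = 0.986) and Smurf1 (r = 0.985), and Flt1 with Cgnl1 (r = 0.989) and Sc5d (r = 0.988). Csf2ra (Med16, r = 0.959, and Pld3, r = 0.948), Csf3r (Inpp5d, r = 0.968, and Rabgap1l, r = 0.957) and the sparse Csf3 (Ppp1r3e, r = 0.893, and Ipo11, r = 0.838) had less close neighbours. Among the members, Csf2rb ran with Csf2rb2 (r = 0.981) and Csf1r (r = 0.975), while Flt1 ran against Csf3r (r = -0.892) and Csf1 (r = -0.851), and Csf2ra showed r = 0.00834 with Csf2rb.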

How the data were processed

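Per the submitters' processing notes, the authors used bcl2fastq 2.20.0, FastQC 0.11.7, Bowtie2 2.4.1 with the GRCm39 genome, featureCounts of Subread 2.0.0, and DESeq2 1.36.0 under R 4.2.1. The annotation, and how strand and multiply aligned reads were handled, are not given in the sources used here. The kit was stranded, and the stated read length of 150 bases disagrees with the stated reagent kit of 100 cycles. Bowtie2 does not split reads over introns, so reads over exon junctions can be lost. The deposited counts are raw whole numbers per gene symbol, and the deposited normalized values are a signal, the count divided by a constant per library. No library appeared to be a copy of another (chi-square over degrees of freedom 9.99 to 219.9 between replicates). Untreated replicate 3 stood off from its group, at 158.5 and 183.5 beside 17.7 between replicates 1 and 2. So did TGFβ replicate 2 (161.0 and 217.5 beside 16.0) and Pam3 replicate 1 (132.7 and 219.9 beside 24.6). Pam3+TGFβ libraries differed by 9.99 to 28.0.

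Counts were tested with the quasi-likelihood test of edgeR 4.0.16 (R 4.3.3, filterByExpr at a minimum count of 10, TMM, robust) on 4 group means of all 12 libraries, with Benjamini-Hochberg adjustment over 14749 genes and calls under 0.05. The interaction subtracts the Pam3 response without TGFβ from that with it. The SE is the size of the log2 fold change divided by the square root of F. RPKM used union exon lengths of GENCODE M39, matched by symbol for 32481 of 40847 genes. Simulated counts with known changes were used to check these steps.

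The members, gene lists and alternatives were chosen with earlier results of these data known. Named list genes were the called ones with the largest change, up to 3 per list, direction and comparison, with no overlap between groups and a minimum of 10 counts in each library where they were higher. The 2 closest genes of each member were named too. Jak2, Stat5a and Stat5b, and some comparisons of other named genes, were chosen after their values were seen. Alternatives were RLE and upper-quartile scaling, DESeq2 1.42.0, limma-trend (limma 3.58.1) on log2 of the normalized values plus 1, other count filters, a replicate block, the summed pair, fits of the libraries compared, and leaving out each library.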

Additional observations from a re-analysis of the deposited data

Results flagged for a closer look

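These results stand out because, for 4 of the 8 tested genes, the change with Pam3 depended on TGFβ in the interaction test of edgeR, and was more positive where TGFβ was present, beside 15.9% of all tested genes called and 10.3% called positive. The interaction was 0.36 for Csf2rb, 0.46 for Csf2rb2, 0.27 for Csf1r and 1.76 for Csf1 on the log2 scale, with adjusted p values of 0.000775, 3.93e-05, 0.0176 and 4.19e-06. The call of Csf1r was lost in 5 of 19 alternative settings, which leaves 3 genes. All 4 genes had a lower level with TGFβ in the absence of Pam3, a group that enters the interaction. Among the 3 receptor genes, the TGFβ effect in the presence of Pam3 was called for Csf2rb2 (0.26) and not for Csf2rb (0.08) or Csf1r (0.01), while Csf1 remained lower (-1.75). The test of single samples lying far from their group needs 4 libraries or more and was not applied to groups of 3.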

How the results depend on the processing

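Over 793 recomputed values of the 8 tested members, 785 kept their side of the threshold, 5 lost a call (each the interaction of Csf1r, given with its values above) and 3 gained one. No called value changed sign, while uncalled values near 0 and the interaction of Csf3 did. The 3 gains were Csf2rb for TGFβ with Pam3 when the pair was summed (0.13), Flt1 for the interaction (0.27) and Csf3 for Pam3 with TGFβ (5.72), whose 2 remaining TGFβ libraries held no count; the cause was not tested for the others. Taken from RPKM instead of counts, the share of Csf2rb2 in the pair was 34.5% untreated, 35.8% with TGFβ, 35.8% with Pam3 and 38.8% with both, since Csf2rb has the longer union of exons. That union is 7277 bases, beside 4740 for Csf2rb2, while the longest transcripts have 4900 and 4740. Leaving out a library moved the share from counts to between 25.2 and 25.7%, 26.6 and 26.8%, 26.6 and 26.7%, and 29.1 and 29.3%. For named list genes, 126 of 4905 recomputed calls changed. Same-numbered libraries of different groups did not deviate together throughout, with correlations of -0.174 to 0.300 and 7 of 18 over 0.1. Their median was 0.0614, beside -0.0578 for libraries of different numbers, and those of replicate 3 were all positive (0.0332 to 0.300). Only 5 of 12 libraries were closest to their own number, and the numbers were not taken to pair samples. With the number as a replicate block, 2751 instead of 2697 genes were called for Pam3 without TGFβ and 2393 instead of 2352 for the interaction, and no member's call changed. Low counts limit Csf3, Csf2 and Csf3r, and shared sequence limits the split of Csf2rb and Csf2rb2.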
